A study of Mus musculus with 222 samples.

Results

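Mammary tumors of backcross mice were divided by the level of D17H6S56E-5, a gene of the H2 region on chromosome 17, and the rest of the expression profile was then compared between the resulting groups. The tumors were spontaneous mammary tumors of MMTV-ErbB2 mice of the F1BX background, and they were chosen by measured values. A tumor was called F1-like where probe set 10450374 (D17H6S56E-5) was at 11 or more on the log2 scale, and FVB-like where it was at 10 or less. The division gave 73 F1-like and 61 FVB-like tumors, out of 160 F1BX tumors and 222 arrays in the series. Of the other F1BX tumors, 6 lay between both thresholds, 18 were on arrays whose log2 values had an interquartile range of 2.62 or less, and 2 had names ending in R. Every array used in the division had an interquartile range of 3.04 or more.

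All tumors came from female mice with an ErbB2 transgene driven by the mouse mammary tumor virus (MMTV) promoter, which is active in mammary epithelium. F1BX mice were the offspring of F1 males that carried the transgene and FVB females that did not, and F1 mice were the offspring of C57BL/6 males and MMTV-ErbB2 FVB females. Beside the F1BX tumors stood 22 F1 tumors and 26 FVB tumors on arrays of the same wide range, which took no part in the division and carried the same transgene. Total RNA of each tumor was hybridised to 1 Affymetrix mouse gene 1.0 ST array, and the values are log2 expression values normalized by the authors with robust multiarray averaging (RMA). The F1-like and FVB-like tumors came from 90 mice, so the mouse was kept as a random block in the fits. The labels give no age or array date for a tumor.

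In a backcross, each mouse takes 1 copy of every chromosome from its FVB mother, while the copy from the F1 father is a mosaic of FVB and C57BL/6 segments. A locus on an autosome is therefore either FVB on both copies or of mixed origin, and neighbouring genes are mostly inherited together. The H2 region on chromosome 17 is the major histocompatibility complex (MHC) of the mouse. It holds the class I genes, whose products present peptides to cytotoxic T cells, the class II genes, whose products present peptides to helper T cells, and between them the class III genes, many of which have no part in antigen presentation. FVB mice carry the q haplotype of this complex and C57BL/6 mice the b haplotype. D17H6S56E-5 and H2-Eb1, the beta chain of the class II E molecule, mark the division. The genotype of the tumors at H2 was not used here, and the names F1-like and FVB-like refer to expression only.

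The class II genes are transcribed from promoters with shared short elements, one of which is the Y box. The promoters of H2-Eb1 and H2-Eb2, whose probe sets were higher in F1-like tumors, and of H2-Aa, whose probe set did not pass the test, are shown with the Y box letters CTGATTGG in capitals. They run from 250 bases before to 50 bases after the annotated gene start, are printed 5′ to 3′ on the strand of the gene, and come from RefSeq on GRCm38.p6, at chr17:34305617-34305916 on the plus strand for H2-Eb1, at chr17:34325425-34325724 on the plus strand for H2-Eb2 and at chr17:34287774-34288073 on the minus strand for H2-Aa.
H2-Eb1: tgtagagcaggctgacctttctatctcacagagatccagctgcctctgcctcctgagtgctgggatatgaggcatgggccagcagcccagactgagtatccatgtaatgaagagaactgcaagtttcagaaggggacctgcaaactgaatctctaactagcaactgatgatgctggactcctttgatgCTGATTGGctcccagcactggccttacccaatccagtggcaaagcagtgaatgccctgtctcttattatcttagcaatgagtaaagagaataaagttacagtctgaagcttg
H2-Eb2: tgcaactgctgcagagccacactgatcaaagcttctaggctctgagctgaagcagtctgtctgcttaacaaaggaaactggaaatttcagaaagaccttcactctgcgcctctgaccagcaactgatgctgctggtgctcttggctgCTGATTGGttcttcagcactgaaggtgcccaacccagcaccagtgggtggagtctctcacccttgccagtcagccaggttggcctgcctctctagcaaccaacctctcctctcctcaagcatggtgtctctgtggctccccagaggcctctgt
H2-Aa: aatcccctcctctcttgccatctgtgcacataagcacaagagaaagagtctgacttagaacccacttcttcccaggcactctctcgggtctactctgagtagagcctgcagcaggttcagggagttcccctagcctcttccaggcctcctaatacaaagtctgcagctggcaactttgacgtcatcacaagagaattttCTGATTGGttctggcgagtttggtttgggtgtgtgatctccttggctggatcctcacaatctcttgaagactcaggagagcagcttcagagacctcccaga
Each of the 3 promoters holds these letters once, starting at position -62 of H2-Eb1, -103 of H2-Eb2 and -51 of H2-Aa from the gene start. Searched on both strands, the letters occur in 4.10% of the 32851 promoters of that table. The table follows the reference strain, and FVB sequence was not analysed here.

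The marker split the tumors widely. D17H6S56E-5 had a lowest, median and highest level of 11.11, 12.15 and 13.25 in F1-like tumors, against 7.74, 9.17 and 9.99 in FVB-like tumors. The groups do not overlap because the thresholds chose them, so no test is given. Just outside the thresholds lay 6 tumors from 10.01 to 10.90, with none between 10.02 and 10.65. F1 tumors had 11.80 ± 1.03 (SD, n = 22) and FVB tumors 9.13 ± 0.35 (SD, n = 26), so that the F1-like and FVB-like levels lay near those of both parental backgrounds.

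H2-Eb1 (probe set 10444298) was higher in every F1-like tumor than in any FVB-like tumor. By its level, 68 of 73 F1-like and all 61 FVB-like tumors were nearer the mean of their own group. The lowest, median and highest level of H2-Eb1 was 7.75, 8.91 and 10.47 in F1-like tumors, against 6.79, 7.27 and 7.63 in FVB-like tumors. The groups thus did not overlap, although this probe set was not used to form them. Of 35555 probe sets compared, it was the only one without overlap, which is 0.00281% of them. Its mean was 8.95 ± 0.57 (SD, n = 73) in F1-like tumors and 7.23 ± 0.19 (SD, n = 61) in FVB-like tumors, a fold of 3.28, given as a description because H2-Eb1 was known as a second marker of the same locus. The F1-like tumors were the more variable, with a spread of 2.72 log2 units between lowest and highest against 0.84 in FVB-like tumors. F1 tumors had 9.05 ± 0.68 (SD, n = 22) and FVB tumors 7.20 ± 0.15 (SD, n = 26).

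**Figure D1:**
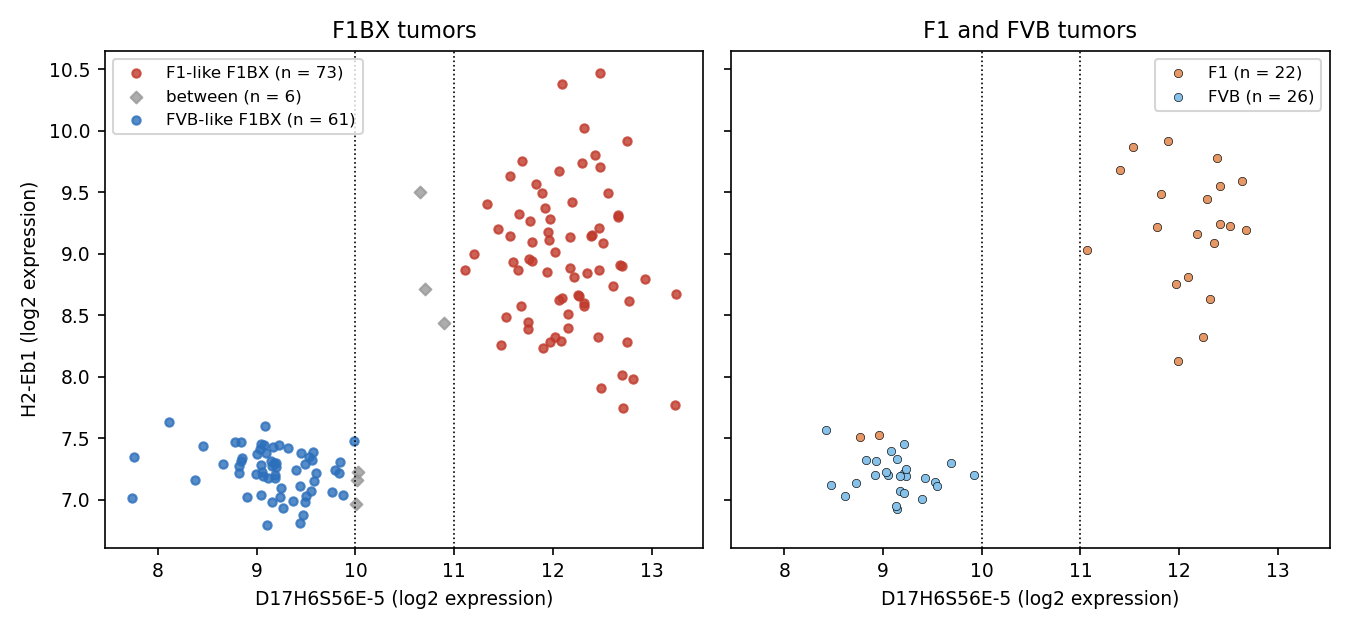
Log2 expression of H2-Eb1 (y axis) against D17H6S56E-5 (x axis), 1 point per tumor, for F1-like, in-between and FVB-like F1BX tumors on the left and for F1 and FVB tumors on the right; dotted lines mark 10 and 11. All 73 F1-like tumors lie above all 61 FVB-like tumors on both axes, the 6 tumors between the lines are divided on the H2-Eb1 axis, and 2 F1 tumors lie among the FVB tumors.

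Tumors of 1 mouse nearly always fell in the same group. Of the 30 mice with at least 2 tumors in the groups, 29 had all of them in 1 group, 18 F1-like and 11 FVB-like. The exception gave 145T5 with 12.50 for D17H6S56E-5 and 9.09 for H2-Eb1, and 145T1 and 145T6 with 9.17 and 9.47 for D17H6S56E-5 and 7.43 and 6.88 for H2-Eb1. Of the 89 mice with tumors in a single group, 49 were F1-like, which is 55.1% with an exact binomial 95% interval of 44.1 to 65.6% that covers sampling of mice only.

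The 6 tumors between the thresholds were not alike. For H2-Eb1, 113T2, 141T1 and 246T3 had 8.71, 9.504 and 8.44, within the range of F1-like tumors, and 117T3, 122T1 and 264T3 had 6.96, 7.23 and 7.16, within that of FVB-like tumors. Their marker levels followed the same order, from 10.65 to 10.90 in 113T2, 141T1 and 246T3 and from 10.01 to 10.02 in 117T3, 122T1 and 264T3. Over the 31 chromosome 17 genes described below, a tumor was counted as nearer the F1-like mean or the FVB-like mean gene by gene. F1-like tumors were nearer the F1-like mean for 16 to 28 of these genes (median 23) and FVB-like tumors for 1 to 16 (median 8), a spread that follows from how the genes were chosen. The tumors between the thresholds gave 25, 25 and 22 for 113T2, 141T1 and 246T3, and 17, 7 and 12 for 117T3, 122T1 and 264T3.

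Beyond the marker, the division was accompanied by few and mostly small changes. With limma and Benjamini-Hochberg adjustment over all 35555 probe sets, 53 passed an adjusted p under 0.05, which is 0.149% of them. Of these, 44 were higher in F1-like tumors (0.124%) and 9 were lower (0.0253%). The absolute log2 fold change was under 0.5 for 40 of the 53 and at least 0.5 for 13. An unadjusted p under 0.05 was reached by 2054 probe sets, or 5.78%. These p-values describe association with the marker level on the same arrays. The probes follow the reference sequence, so strain differences under a probe and differences in RNA level cannot be told apart here, and in bulk tumors fewer cells of a type and less RNA per cell cannot be told apart either.

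Of the 32 calls with a position, 31 lay on chromosome 17. Of the 53 called probe sets, 32 carried 1 gene symbol, 5 carried several and 16 carried none. Among probe sets with 1 symbol and a position in GRCm38.p6, 20 of 439 were called within 10 Mb of D17H6S56E-5 (4.56%), 11 of 582 on the rest of chromosome 17 (1.89%) and 1 of 20676 on all other chromosomes (0.00484%). At an unadjusted p under 0.05 the shares were 20.7%, 12.2% and 4.99%. Within 2 Mb on either side, 13 of 182 probe sets were called (7.14%), from 2 to 10 Mb 7 of 257 (2.72%), from 10 to 20 Mb 10 of 275 (3.64%) and beyond 20 Mb 1 of 307 (0.326%). The calls within 10 Mb and within 2 Mb include H2-Eb1, which was known beforehand. The calls with 1 symbol thus extended well past H2 itself, between Riok2 at -17.6 Mb and Pot1b at 20.7 Mb. Neither Riok2 nor Pot1b was called with 1 tumor per mouse. Farther out, between -28.74 and -28.35 Mb, lay the called probe sets that join the Dynlt1 or the Tmem181 genes.

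**Figure D2:**
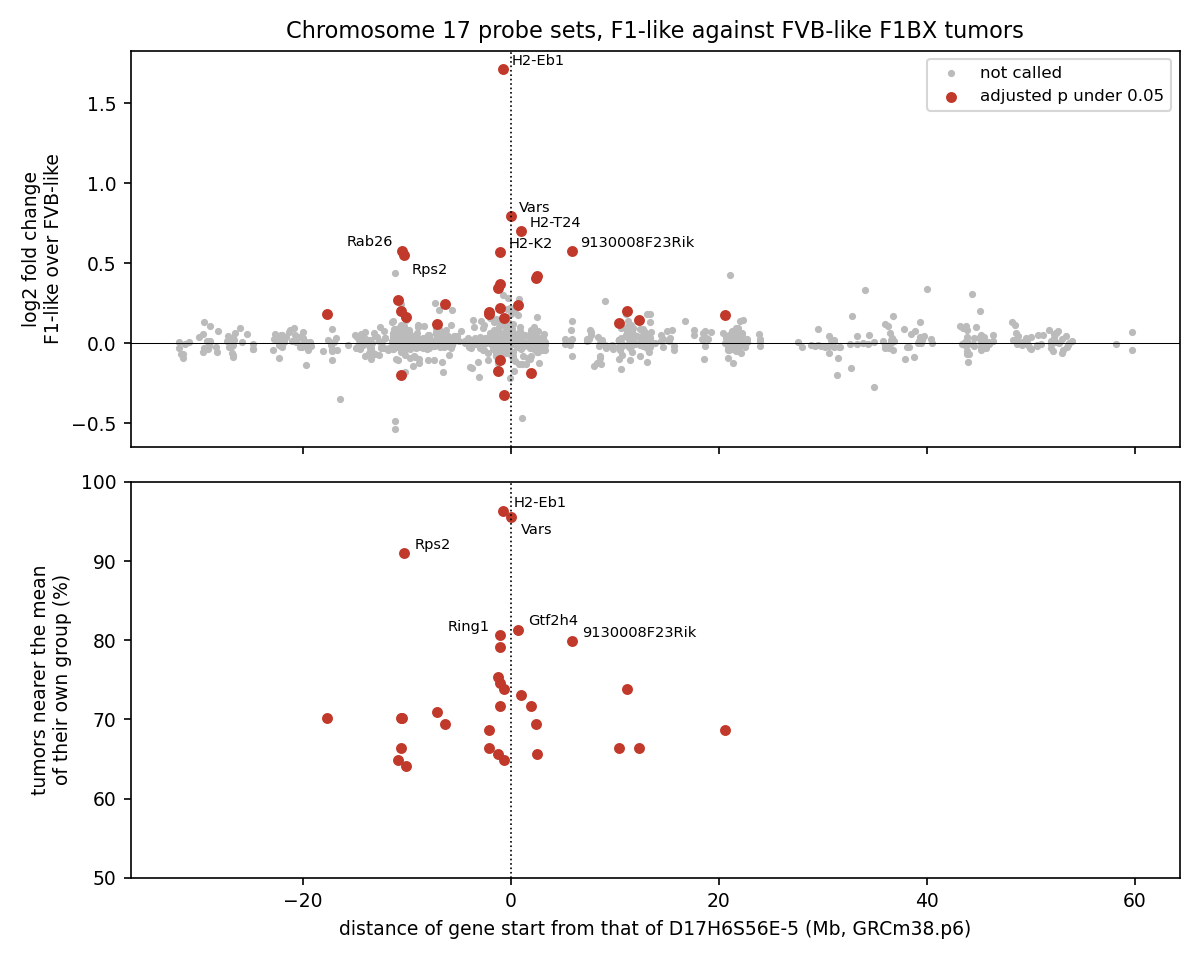
Upper panel, log2 fold change of F1-like over FVB-like tumors (y axis) for 1021 chromosome 17 probe sets by distance of the gene start from that of D17H6S56E-5 in Mb (x axis), with called probe sets in red; lower panel, percent of all F1-like and FVB-like tumors nearer the mean of their own group for the 31 called genes. Red points lie from -17.6 to 20.7 Mb, and H2-Eb1 and Vars stand highest in the lower panel with 96.3 and 95.5%, followed by Rps2.

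Vars, the valyl-tRNA synthetase that loads valine onto its tRNA, followed the marker most closely. Vars (probe set 10444605) had a lowest, median and highest level of 9.41, 9.97 and 10.64 in F1-like tumors, against 8.74, 9.16 and 9.60 in FVB-like tumors. The ranges overlapped only between 9.41 and 9.60. The log2 fold change was 0.79 with a standard error (SE) of 0.037 (1.73-fold higher, adjusted p = 2.28e-41, limma), and 69 of 73 F1-like and 59 of 61 FVB-like tumors were nearer the mean of their own group. In GRCm38.p6, Vars is the next gene after D17H6S56E-5, with 132 bases between their annotated spans, and whether both probe sets read separate transcripts was not tested. Lsm2, the neighbour on the other side and a component of the complexes that bind U-rich RNA ends, had a log2 fold change of 0.07 (adjusted p = 0.880, limma).

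Rps2, a protein of the small ribosomal subunit, was the most closely associated gene far from the marker, at -10.3 Mb. The called probe set 10442580 had 11.49, 12.36 and 12.81 as lowest, median and highest level in F1-like tumors, against 11.49, 11.78 and 12.54 in FVB-like tumors. The log2 fold change was 0.55 with a standard error of 0.039 (1.47-fold higher, adjusted p = 1.71e-24, limma). The other probe sets named Rps2 did not pass the test, with log2 fold changes of 0.04 for 10445239 and -0.03 for 10606744, and ribosomal protein genes have many near-identical copies, so which copy the called probe set reads is uncertain. For Rps2, 65 of 73 F1-like and 57 of 61 FVB-like tumors were nearer the mean of their own group, and the 12 tumors on the other side came from 9 mice. All 3 tumors of one of them, 292T1, 292T2 and 292T3, were F1-like by the marker and had Rps2 at 11.91, 11.69 and 11.49, below the midpoint of 12.07 between both group means. This was the only 1 of 30 mice with at least 2 tumors in which every tumor lay on the other side for Rps2. No mouse did so for H2-Eb1 or Vars, where 5 and 6 tumors were on the other side.

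Nearer to the marker, several genes of general cell function were higher in F1-like tumors by less than a doubling. Ring1, a ubiquitin ligase of the Polycomb repressive complex at -0.976 Mb, had 8.34, 8.67 and 8.95 as lowest, median and highest level in F1-like tumors, against 8.06, 8.46 and 8.73 in FVB-like tumors. Its log2 fold change was 0.22 with a standard error of 0.024 (adjusted p = 3.12e-12, limma). Gtf2h4, a subunit of the transcription and repair factor TFIIH at 0.671 Mb, had 7.52, 7.95 and 8.28 in F1-like tumors, against 7.40, 7.72 and 8.04 in FVB-like tumors. Its log2 fold change was 0.24 with a standard error of 0.026 (adjusted p = 3.12e-12, limma). For both genes the groups overlapped over most of their range, and 80.6% and 81.3% of tumors were nearer the mean of their own group.

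The predicted gene 9130008F23Rik, at 5.88 Mb, was singled out after its values were seen. It had 6.71, 7.59 and 8.33 in F1-like tumors, against 5.66, 6.93 and 9.12 in FVB-like tumors, with a log2 fold change of 0.58 (SE 0.074, adjusted p = 5.06e-09, limma). The highest value of all was thus in an FVB-like tumor. AA388235, an expressed sequence at -1.02 Mb, had a log2 fold change of 0.37 (adjusted p = 6.42e-12, limma). Rab11b, a GTPase of recycling endosomes at -1.25 Mb, was higher by 0.35 at probe set 10450034 (adjusted p = 1.62e-07, limma), while the brighter probe set 10465683 of the same name had 0.06 and was not called.

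**Figure D3:**
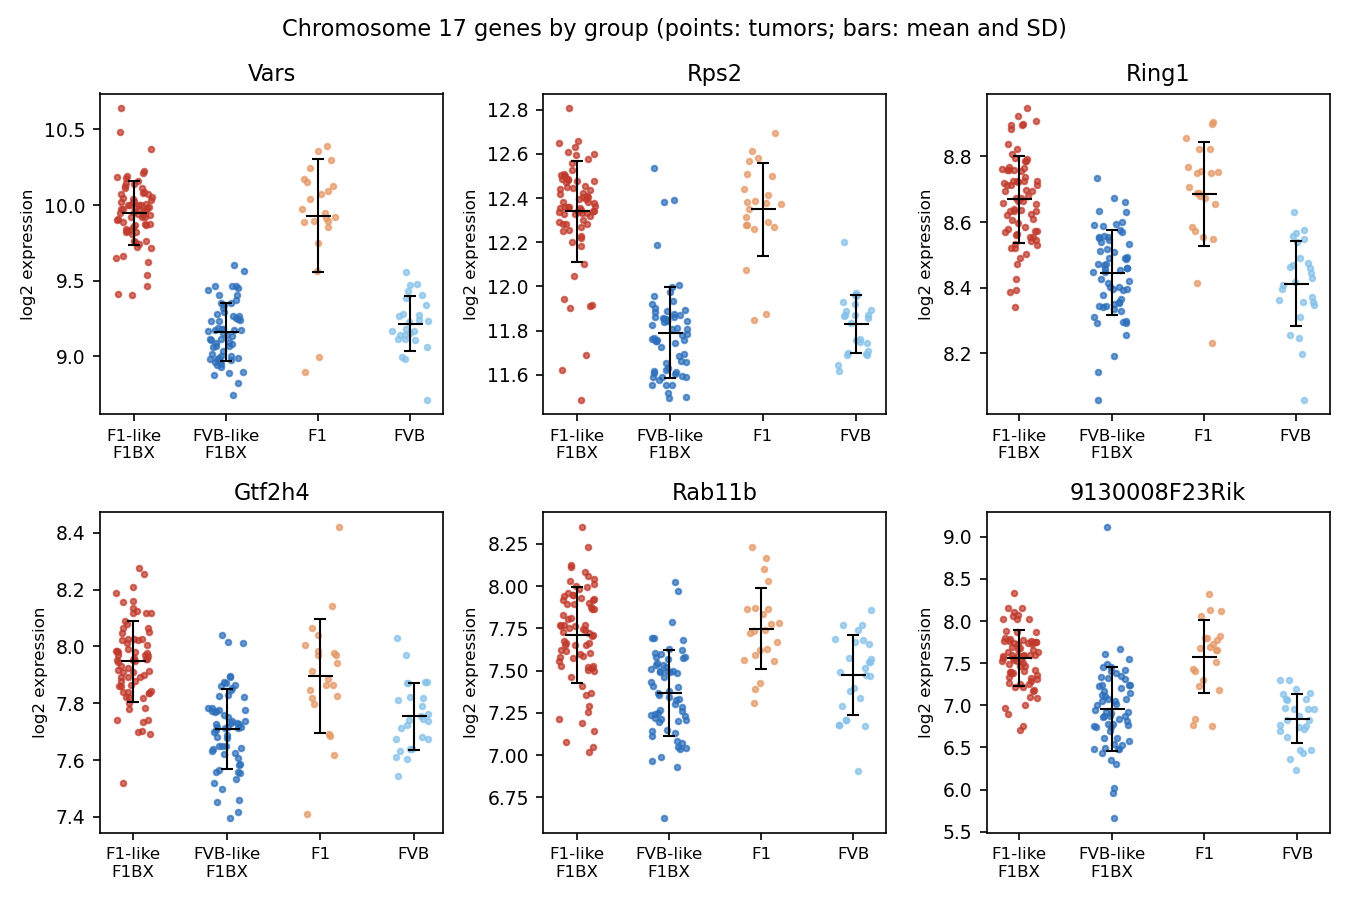
Log2 expression (y axis) of 6 chromosome 17 genes in F1-like F1BX, FVB-like F1BX, F1 and FVB tumors (x axis), 1 point per tumor, with the mean and SD as bars. Vars averages 9.95 in F1-like and 9.16 in FVB-like tumors, and 9.93 in F1 and 9.22 in FVB tumors; the other genes show the same order with more overlap.

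Besides H2-Eb1, which is given above as a description, 2 of the other 7 measured class II genes passed the test, 1 higher and 1 lower in F1-like tumors, against 0.149% of all probe sets and 4.56% of those within 10 Mb of the marker. H2-Eb2, a second E beta gene, had a median of 6.11 in F1-like tumors and 6.00 in FVB-like tumors, with a log2 fold change of 0.16 (SE 0.032, adjusted p = 0.00336, limma). With 1 tumor per mouse H2-Eb2 was not called (log2 fold change 0.11, adjusted p = 0.465, limma). H2-Ea, the alpha chain of the E molecule, was lower, with a median of 5.95 in F1-like tumors and 6.29 in FVB-like tumors and a log2 fold change of -0.32 (SE 0.055, adjusted p = 4.26e-05, limma). H2-Eb2 and H2-Ea are both dim, and whether their signal stands above background was not tested. The chains of the A molecule did not pass with the division by D17H6S56E-5. H2-Aa had 8.71, 10.24 and 11.82 in F1-like tumors, against 8.14, 10.27 and 11.24 in FVB-like tumors, with a log2 fold change of 0.16 and a 95% interval of -0.08 to 0.40. H2-Ab1 had 8.36, 10.04 and 11.52 in F1-like tumors, against 8.03, 9.95 and 10.88 in FVB-like tumors, with a log2 fold change of 0.30 (adjusted p = 0.676, limma). When tumors were divided by H2-Eb1 instead, H2-Ab1 was called, with a log2 fold change of 0.48 (adjusted p = 0.015, limma), and H2-Aa had 0.37 and was not (adjusted p = 0.514, limma). That division is made on the level of another class II gene, so the H2-Ab1 call is not independent of it. The median log2 fold change of the 7 class II genes other than H2-Eb1 was 0.05, against -0.000341 over all probe sets.

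Genes listed as acting with class II molecules did not pass the test. Cd74, the invariant chain that guides class II molecules through the cell and is encoded on another chromosome, had 8.31, 10.13 and 11.52 in F1-like tumors, against 8.20, 10.31 and 11.47 in FVB-like tumors, with a log2 fold change of -0.07 and a 95% interval of -0.32 to 0.18. With tumors divided by H2-Eb1, Cd74 had a log2 fold change of 0.16 and was not called (adjusted p = 0.932, limma). None of the 6 genes of the list of class II regulators and invariant chain was called by limma. With 0.149% of all probe sets called, a list this short would seldom hold a call. None of the 6 had an unadjusted p under 0.05, against 5.78% of all probe sets. Their median log2 fold change was -0.01. Of the 7 class II genes other than H2-Eb1, 3 had an unadjusted p under 0.05, against 5.78% of all probe sets and 20.7% within 10 Mb of the marker.

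**Figure D4:**
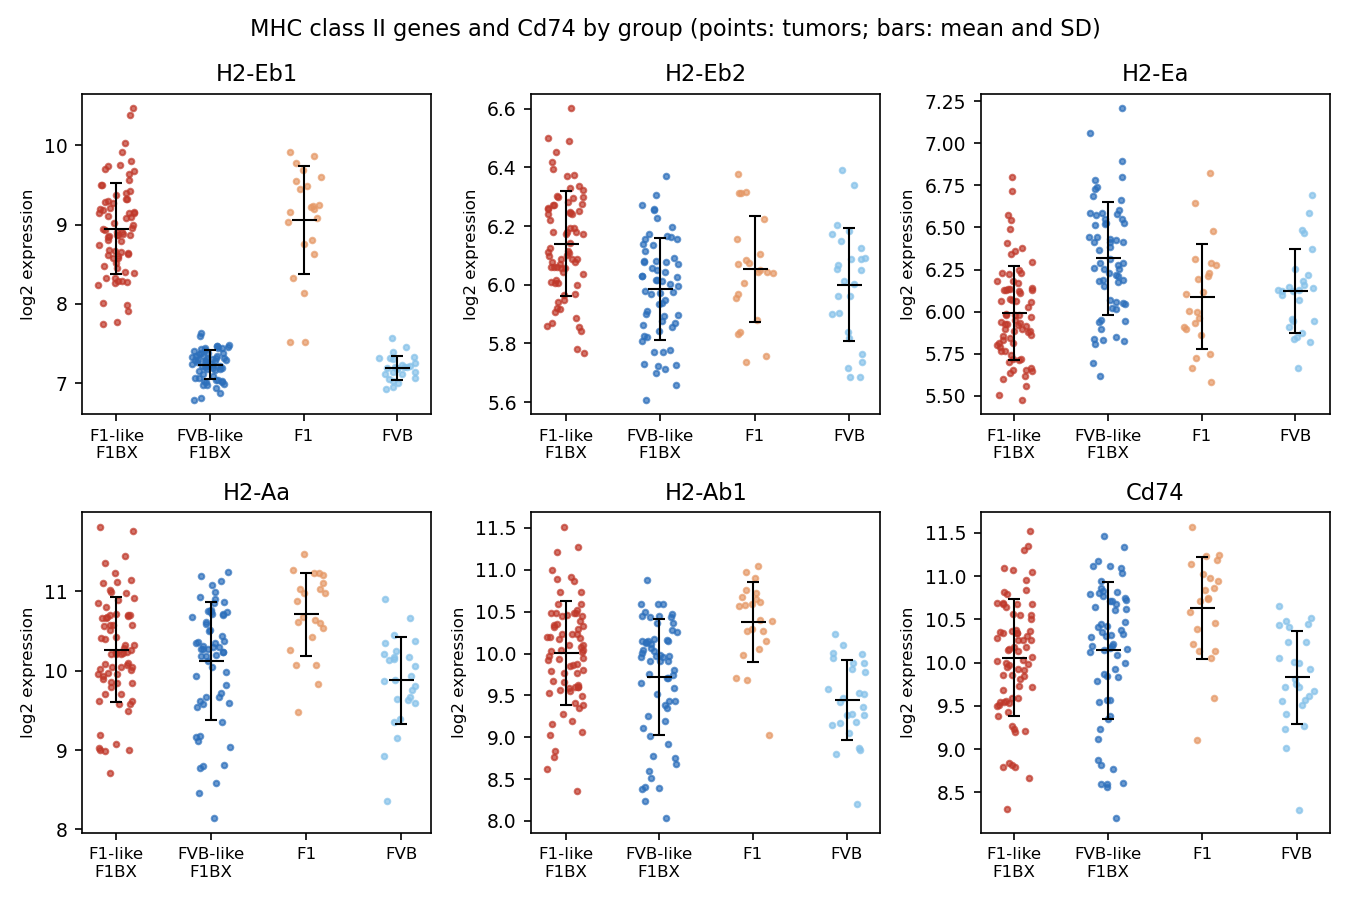
Log2 expression (y axis) of 5 MHC class II genes and Cd74 in F1-like F1BX, FVB-like F1BX, F1 and FVB tumors (x axis), 1 point per tumor, with the mean and SD as bars. H2-Eb1 separates F1-like from FVB-like tumors and, apart from 2 F1 tumors, F1 from FVB tumors, whereas H2-Aa, H2-Ab1 and Cd74 overlap widely between F1-like and FVB-like tumors and are higher in F1 than in FVB tumors.

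Of the 24 listed class I genes, 12 were measured, and 2 of these 12 were called, both higher in F1-like tumors. This is 16.7%, against 0.149% of all probe sets and 4.56% within 10 Mb of the marker. An unadjusted p under 0.05 was reached by 4 (33.3%, against 5.78% of all probe sets and 20.7% within 10 Mb). H2-T24, at 1.01 Mb, had 6.56, 8.12 and 9.68 in F1-like tumors, against 6.50, 7.43 and 8.74 in FVB-like tumors, a log2 fold change of 0.70 (SE 0.112, adjusted p = 1.08e-05, limma). H2-M2, at 2.48 Mb, had a log2 fold change of 0.41 (adjusted p = 4.33e-05, limma). H2-K2, a class I sequence outside that list at -1.02 Mb, was higher by 0.57 (adjusted p = 1.09e-05, limma). H2-T10 at its own probe set had a mean of 9.78 in F1-like tumors and 10.24 in FVB-like tumors and did not pass (log2 fold change -0.47, adjusted p = 0.346, limma). Class I genes are near copies of each other, and signal may be shared among them.

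The larger class I differences were at probe sets that join several genes, which cannot be told apart. The probe set annotated to H2-T-ps and H2-T23 had 9.49, 10.28 and 11.40 in F1-like tumors, against 7.93, 9.39 and 10.53 in FVB-like tumors, with a log2 fold change of 0.95 (SE 0.075, adjusted p = 4.79e-21, limma). The probe set annotated to H2-T9, H2-T22 and H2-T10 had 9.49, 10.49 and 12.51 in F1-like tumors, against 8.11, 9.34 and 10.98 in FVB-like tumors, with a log2 fold change of 1.19 (2.29-fold higher, SE 0.126, adjusted p = 5.57e-13, limma). The other 3 called probe sets of this kind were higher by 0.30 to 0.35 and were annotated to the Dynlt1 genes, light chains of the dynein motor, and to the Tmem181 genes, which lie between -28.74 and -28.35 Mb on chromosome 17.

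Of the 37 measured class III genes other than the marker and the complement and cytokine genes, only Vars was called (2.70%, against 0.149% of all probe sets and 4.56% within 10 Mb of the marker). An unadjusted p under 0.05 was reached by 14 (37.8%), against 5.78% of all probe sets, 20.7% within 10 Mb and 30.2% within 2 Mb. Their median log2 fold change was 0.04. None of the 9 class III complement and cytokine genes was called by limma, with 2 at an unadjusted p under 0.05. The 14 antigen processing genes, which include the peptide transporter and the immunoproteasome subunits, had none called, none at an unadjusted p under 0.05 and a median log2 fold change of -0.02.

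Lower in F1-like tumors within 10 Mb were, besides H2-Ea, Ppp1r11, an inhibitor of protein phosphatase, by 0.19 on the log2 scale (-0.19, adjusted p = 1.16e-05, limma), Vps52, a tethering factor of the Golgi, and Rps28, a ribosomal protein. Vps52 and Rps28 had log2 fold changes of -0.10 and -0.18. Rps28 was called at 1 of its 7 probe sets. Its probe sets are placed by the gene and may read copies elsewhere. The remaining genes called within 10 Mb, Cyp4f41-ps, Slc26a8, Taf11, Olfr111 and Zfp870, were higher by 0.12 (Taf11) to 0.42 (Olfr111). Taf11 is a subunit of the general transcription factor TFIID, and Olfr111 encodes an olfactory receptor.

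On the rest of chromosome 17, 10 of the 11 called genes were higher. Rab26, a GTPase of secretory granules at -10.5 Mb, had 6.75, 7.81 and 10.07 in F1-like tumors, against 6.53, 7.22 and 8.90 in FVB-like tumors, with a log2 fold change of 0.58 (SE 0.117, adjusted p = 0.00218, limma). With Rps2, Amdhd2, Dnase1l2, Jpt2 and the lower D330041H03Rik it made up 6 called genes between -10.8 and -10.1 Mb. D330041H03Rik was called at probe set 10448559 (log2 fold change -0.20, adjusted p = 0.0395, limma), while its brighter probe set 10448557 had -0.04 and was not called (adjusted p = 0.933, limma). Polh, the translesion DNA polymerase eta at 11.2 Mb, was higher by 0.20, and Riok2, a kinase of ribosome maturation at -17.6 Mb, by 0.19 (adjusted p = 0.00019 and 0.00174, limma). Mrps10, Cdc5l and Pot1b, a telomere protein, were higher by 0.15, 0.13 and 0.18. Cdc5l was called at 1 of its 11 probe sets, none of the others being near the threshold (lowest adjusted p 0.952).

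Away from chromosome 17, Hoxc9, a homeobox transcription factor on chromosome 15, was the only called gene with a position. Its median was 6.07 in F1-like tumors and 5.94 in FVB-like tumors, with a log2 fold change of 0.12 (adjusted p = 0.0182, limma). With stricter marker thresholds, which left out the tumors next to them, it was no longer called and Mpv17 was called in its place. The 16 called probe sets with no gene symbol had no position. Of them, 10340447 and 10341228 were higher by 0.93 and 0.95. The gene with the largest absolute fold change on other chromosomes was Emb, with a log2 fold change of -1.01 that did not pass the test (adjusted p = 0.438, limma).

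No gene of the cell type and tumor pathway lists passed the test. Only 0.149% of all probe sets did, so the lack of calls in lists this short says little about them. Across 9 cell type lists with 71 measured genes, none was called by limma and 4 (5.63%) had an unadjusted p under 0.05, against 5.78% of all probe sets. Of these 4, 3 were among the 8 basal and myoepithelial genes, all 8 of which had a log2 fold change above 0 (median 0.18, from 0.02 to 0.21). The mean level of that list per tumor was 6.71 to 8.54 in F1-like tumors and 6.59 to 8.07 in FVB-like tumors, and its part in the other differences was not tested. The list medians ran from -0.06 for adipocytes to 0.18 for basal and myoepithelial genes. The 7 T cell genes had a mean level per tumor of 5.87 to 6.59 in F1-like tumors and of 5.86 to 6.69 in FVB-like tumors, and the 12 macrophage and dendritic cell genes 8.15 to 10.89 in F1-like tumors and 8.00 to 9.87 in FVB-like tumors. Across proliferation, interferon response, ERBB receptors and ligands, ERK pathway output, and AKT, mTOR and ERK components, none of 48 genes was called and 2 had an unadjusted p under 0.05 (4.17%). Erbb2 averaged 12.38 ± 0.18 (SD, n = 73) in F1-like tumors and 12.41 ± 0.43 (SD, n = 61) in FVB-like tumors, with a 95% interval of the log2 fold change of -0.14 to 0.09. Milk protein genes had the highest list median, 0.75, with none of 5 called and 3 at an unadjusted p under 0.05. With them, 5 of 53 pathway genes (9.43%) had an unadjusted p under 0.05. Csn1s1, a casein, had 6.43, 11.91 and 13.14 in F1-like tumors, against 5.50, 11.42 and 13.22 in FVB-like tumors (log2 fold change 0.88, adjusted p = 0.745, limma).

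The FVB-like tumor 168T1 stood apart from the rest. Its Erbb2 level was 9.32, against 11.73 in the next lowest tumor, and the epithelial gene Epcam was 6.49, against 11.84 in the next lowest. Its median correlation with the other tumors was 0.929, against 0.951 or more for each of the others. Its D17H6S56E-5 and H2-Eb1 levels were 8.46 and 7.44, within the FVB-like range, and Rps2 was 12.54, the highest of the FVB-like tumors. Without it 50 probe sets were called, 48 of them among the 53.

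F1 and FVB tumors gave a comparison in tumors that the division did not use. D17H6S56E-5 and H2-Eb1 were known from this comparison beforehand, so for genes inherited with them it is no independent check. Between them 5679 of 35555 probe sets passed an adjusted p under 0.05 (16%, limma). Of the 52 probe sets called in F1BX tumors besides H2-Eb1, 50 had the same sign in F1 against FVB tumors, and 26 of the 52 were also called there, each with the same sign. All 30 of these with 1 symbol and a position on chromosome 17 had the same sign, and 15 of the 30 were called. The share with the same sign over all probe sets was not counted. For Vars, F1 tumors had 9.93 ± 0.38 (SD, n = 22) and FVB tumors 9.22 ± 0.18 (SD, n = 26), a log2 fold change of 0.71 (adjusted p = 5.62e-09, limma). For Rps2 it was 0.52 (adjusted p = 1.26e-10, limma), for Ring1 0.27 (adjusted p = 1.08e-05, limma) and for 9130008F23Rik 0.73 (adjusted p = 8.28e-07, limma). H2-Eb2, H2-Ea and H2-K2 had 0.05, -0.03 and 0.16 and were not called there, and Hoxc9 had 0.00 (adjusted p = 0.977, limma).

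In 2 of the F1 tumors the marker was at the level of FVB tumors. F21T3 and F21T4 had 8.76 and 8.96 for D17H6S56E-5, 7.51 and 7.52 for H2-Eb1 and 8.996 and 8.897 for Vars. F21T2, named as of the same mouse, had 12.68, 9.19 and 10.09. Of the 31 chromosome 17 genes, F21T3 and F21T4 were nearer the F1-like mean for 6 and 4, against 24 for F21T2 and a median of 23 over F1 tumors. Without both tumors, 7518 probe sets were called between F1 and FVB tumors, and the log2 fold changes of Vars and Rps2 were 0.82 and 0.57.

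The difference between both comparisons was tested in 1 fit, as F1-like minus FVB-like less F1 minus FVB. Over all probe sets 3142 passed (8.84%). Of the 30 chromosome 17 genes called in F1BX tumors besides H2-Eb1 none passed by limma, and of the 52 called probe sets 4 did, among them both H2-T probe sets that join several genes. For H2-T-ps and H2-T23 the log2 fold change was 0.95 in F1BX tumors and 0.50 in F1 against FVB tumors, with a difference of 0.44 (adjusted p = 0.0302, limma). For H2-T9, H2-T22 and H2-T10 these were 1.19 and 0.48, with a difference of 0.70 (adjusted p = 0.0383, limma). Without F21T3 and F21T4 the adjusted p was 0.0582 and 0.0553.

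For the class II genes of the A molecule and for Cd74 the difference ran the other way. For H2-Aa the log2 fold change was 0.16 in F1BX tumors and 0.83 in F1 against FVB tumors, where F1 tumors had 10.71 ± 0.52 (SD, n = 22) and FVB tumors 9.88 ± 0.55 (SD, n = 26), and the difference was -0.68 (adjusted p = 0.039, limma). For H2-Ab1 the fold changes were 0.30 in F1BX tumors and 0.93 in F1 against FVB tumors, and the difference was -0.64 (adjusted p = 0.0368, limma). For Cd74 they were -0.07 and 0.80, and the difference was -0.87 (adjusted p = 0.00871, limma). Beside this, 5 of the 12 macrophage and dendritic cell genes were called as higher in F1 than in FVB tumors (41.7%, against 16% of all probe sets). None of the 12 was called between F1-like and FVB-like tumors, where 0.149% of all probe sets were, and their part in the class II result was not tested. Among the 5 measured milk genes, Btn1a1 and Csn2 also differed between both comparisons, where 8.84% of all probe sets did. None of the 5 was called between F1-like and FVB-like tumors. Btn1a1, a milk fat globule protein, had a log2 fold change of 0.79 in F1BX tumors and -2.33 in F1 against FVB tumors, with a difference of 3.16 (adjusted p = 0.00079, limma), and Csn2, beta-casein, 0.75 and -1.36, with a difference of 2.12 (adjusted p = 0.022, limma).

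**Figure D5:**
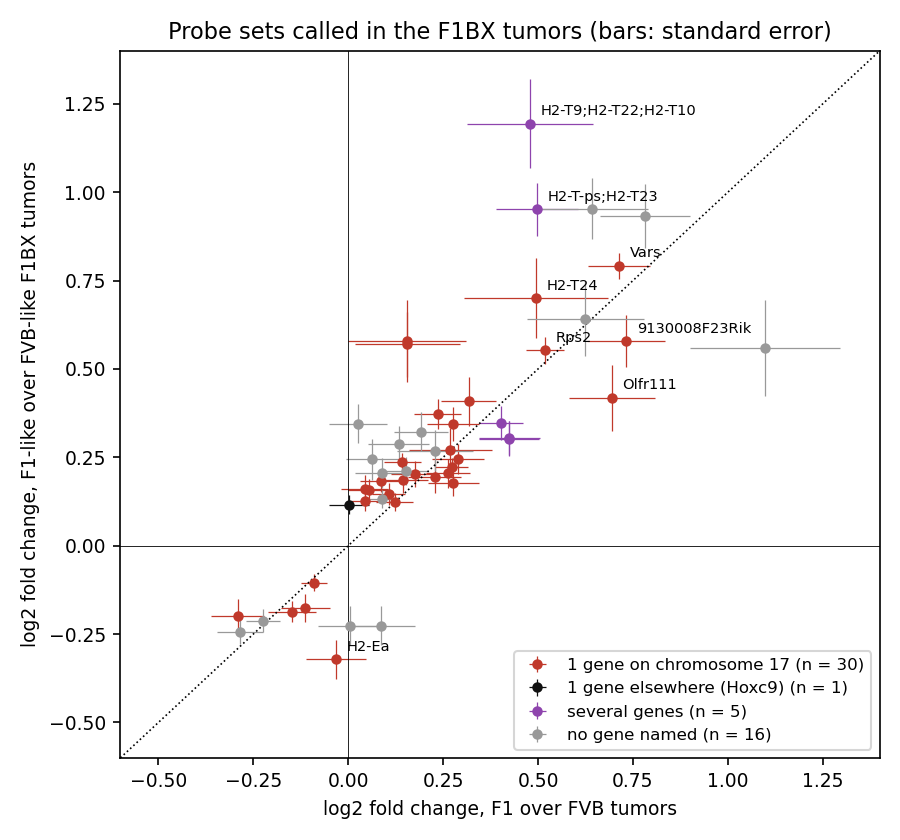
Log2 fold change of F1-like over FVB-like F1BX tumors (y axis) against that of F1 over FVB tumors (x axis) for the 52 called probe sets other than H2-Eb1, with standard errors as bars and the line of equal values dotted. All 30 single-gene chromosome 17 points have the same sign on both axes, Vars and Rps2 lie close to the line, and both H2-T probe sets lie above it.

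The narrow-range arrays held 10 F1-like and 7 FVB-like F1BX tumors by the same thresholds. D17H6S56E-5 was 11.45 to 12.74 in F1-like tumors, against 8.14 to 9.27 in FVB-like tumors. Vars was 9.13 to 9.89 in F1-like tumors, against 8.53 to 8.91 in FVB-like tumors, without overlap, and it was the only probe set called (0.00281%, log2 fold change 0.81, adjusted p = 0.0051, limma). An unadjusted p under 0.05 was reached by 2221 probe sets (6.25%). H2-Eb1 was 8.35 to 9.87 in F1-like tumors, against 7.91 to 8.58 in FVB-like tumors, so here its ranges overlapped. Rps2 was 11.29 to 12.20 in F1-like tumors, against 10.90 to 11.54 in FVB-like tumors (log2 fold change 0.63, unadjusted p = 0.000252 and adjusted p = 0.65, limma). Of the 52 probe sets called on the wide-range arrays besides H2-Eb1, 50 had the same sign on the narrow-range arrays, and 19 had an unadjusted p under 0.05 with that sign. Here too the same-sign share over all probe sets was not counted.

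Over the F1-like and FVB-like tumors, the probe sets whose level followed D17H6S56E-5 most closely were Vars (Pearson r = 0.91), H2-Eb1 (0.83), the H2-T-ps and H2-T23 probe set (0.75) and Rps2 (0.75). Gtf2h4, Ring1 and AA388235 had 0.65, 0.63 and 0.59. These values are a description, because the tumors were selected on the marker and share arrays and, in part, mice.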

How the data were processed

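Expression in mammary tumors was profiled on Affymetrix arrays, mouse gene 1.0 ST. The deposited log2 values were RMA-normalized by the authors in expression console, a step that sets all arrays on 1 scale. The sources used here name no genome build, and positions came from RefSeq genes on GRCm38.p6, with 21698 of 35556 probe sets placed through 1 gene symbol. Arrays have no counting depth, and their number limits the precision.

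Groups were compared with limma 3.58.1 in R 4.3.3, with the mouse, taken from the tumor name, as a random block (consensus correlation 0.107, estimated on every 10th probe set) and Benjamini-Hochberg adjustment. The methods used the significance analysis of microarrays for other comparisons and give no test for this division. Tumors, gene lists and tests were chosen with earlier results of these data known. Named genes were the 15 within 10 Mb, the 5 on the rest of chromosome 17 and the 10 elsewhere with the largest called changes each way, at the brightest probe set of a gene and without predicted genes, and the genes of the lists. Rps2, Rab11b, Cdc5l, Rps28 and D330041H03Rik were called at a probe set that was not the brightest, and these as well as 9130008F23Rik, Emb and Mpv17 were named after their values were seen. Of 251 listed genes, 211 were measured. On simulated data for this comparison over 35555 probe sets, changes of 0.25 on the log2 scale were recovered in 68.7%, of 0.5 in 97.0% and of 1 in 100.0%. Alternatives were other thresholds, an H2-Eb1 split, 1 tumor per mouse, no block, added arrays, a filter on dim probe sets, quantile normalization and immune covariates.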

Additional observations from a re-analysis of the deposited data

Results flagged for a closer look

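Each result here is one where the change between F1-like and FVB-like F1BX tumors differed from the change between F1 and FVB tumors in the test of the difference (limma, adjusted p under 0.05). Among the 52 probe sets called in F1BX tumors besides H2-Eb1 there were 4, the H2-T-ps and H2-T23 probe set with a difference of 0.44 on the log2 scale, the H2-T9, H2-T22 and H2-T10 probe set with 0.70, and 2 probe sets with no gene symbol, 10340242 with 0.32 and 10338789 with -0.31. Among 210 list genes there were 12 (5.71%, against 8.84% of all probe sets). The class II genes H2-Aa and H2-Ab1 differed by -0.68 and -0.64 and the invariant chain Cd74 by -0.87. The class I genes H2-Q10 and H2-Bl differed by 0.27 and 0.23. Itgax, an integrin of dendritic cells and macrophages, differed by -0.66 and Vwf, an endothelial clotting protein, by -0.54. The estrogen receptor Esr1 differed by 0.71, the kinase Mtor by 0.30 and the ERK scaffold Ksr1 by -0.47. The milk genes Csn2 and Btn1a1 differed by 2.12 and 3.16. In 12 groups of 4 to 10 tumors examined for D17H6S56E-5, H2-Eb1, Vars and Rps2, no single tumor stood apart from its group. The 73 F1-like, 61 FVB-like, 22 F1 and 26 FVB tumors form larger groups, which this check did not cover. Tumors that stood apart within these larger groups are described above.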

How the results depend on the processing

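No paired analysis was possible because the replicate numbers only name tumors and pair none across groups; the mouse was a block instead, and without it 56 probe sets were called, 52 of them among the 53. Over the alternatives at the same adjusted p, the count of called probe sets ran from 39 with 1 tumor per mouse to 56. At an FDR of at most 0.005 with a fold of at least 2, the thresholds the study used elsewhere, 2 probe sets were left, 1 within 10 Mb, 0 on the rest of chromosome 17 and 0 on other chromosomes (limma, against 2054 probe sets at an unadjusted p under 0.05). The 1 within 10 Mb was H2-Eb1, which is given above as a description only. The other was the H2-T9, H2-T22 and H2-T10 probe set, which joins several genes and was given no position. On the rest of chromosome 17 there were 6 calls with the H2-Eb1 split and 6 with 1 tumor per mouse, and 1 when the window was 20 Mb. On other chromosomes there were 3 calls with narrow-range arrays added, 2 with 1 tumor per mouse and 2 with quantile normalization, namely Hoxc9 with Aox4, Fam114a1 or both. Of the 32 called genes with 1 symbol, 15 were called under each of the 11 settings other than the stricter FDR and fold, 14 were lost in at least 1, and none changed direction. The other 3, AA388235, H2-M2 and H2-Eb1, were called wherever they were tested, AA388235 and H2-M2 being removed by the filter on dim probe sets and H2-Eb1 defining its own split. D330041H03Rik and Jpt2 were lost most often, and 11 genes, H2-Eb2 among them, were lost with 1 tumor per mouse. H2-Ab1 was called with the H2-Eb1 split alone, a split made on the level of another class II gene. With immune marker means as covariates, 47 of the 53 were called. The setting without F21T3 and F21T4 and that without 168T1 were chosen after seeing the data. The probe sets' brightness over background was not used, and dim genes such as H2-Eb2 and H2-Ea lie near 6 on the log2 scale.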
